A study of Canis lupus with 24 samples.

Results

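The comparison described here is between K9TCC sphere cells transfected with an siRNA labelled COX-2 siRNA and sphere cells transfected with a negative control siRNA, 3 arrays each, 6 of the 24 arrays in the series. The arrays were chosen by their titles alone, and all 16295 genes whose features carry a single gene symbol were compared. K9TCC is an established dog cell line from transitional cell carcinoma of the bladder, the common bladder cancer of dogs. The cells labelled spheres had been cultured without serum, in N2 medium with EGF and basic FGF on ultralow attachment plastic, and the adherent cells in medium with fetal bovine serum. For transfection, per the labels' protocols, both forms were seeded in anchorage-dependent conditions on the previous day, given siRNA with Lipofectamine RNAiMAX and kept for 48 h, so the transfected sphere cells had been plated for attachment. The other 18 arrays hold adherent cells given the same 2 siRNAs, and both forms given 50 µM mavacoxib, a COX-2 inhibitor used in dogs, or DMSO alone for 24 h, with 3 arrays per group. The labels call the spheres cancer stem cells, and they do not name the siRNA sequences. They do not state whether the 3 arrays of each group stand for independent cultures, and the p-values therefore rest on array-to-array spread that may be technical.

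COX-2, encoded by PTGS2, converts arachidonic acid to the precursor of the prostaglandins, and bladder carcinomas of dogs commonly express it. An siRNA is a short RNA duplex that guides an Argonaute protein to a matching messenger RNA. Cells also carry sensors of double-stranded RNA, among them RIG-I, MDA5, TLR3 and PKR, whose adaptors activate interferon regulatory factors and NF-kB. The interferons released bind receptors that signal through JAK kinases and STAT proteins to induce antiviral effector genes, while NF-kB induces cytokines, chemokines and its own inhibitors.

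Levels are the deposited log2 signals of a gene's brightest feature, and a difference of 1 is a 2-fold difference. The median of all values was 4.82. The files give no detection call, so where the lower group lies under 4.82 and its signal is background, the true difference may be larger. A gene passed at an adjusted p under 0.05 in limma, and differences are given with their SE, labelled COX-2 siRNA minus negative siRNA. Arrays of a group correlated at 0.988 to 0.996 (labelled COX-2 siRNA) and 0.991 to 0.997 (negative siRNA) across genes, and arrays of different arms at 0.961 to 0.969. Among the COX-2-labelled arrays, array 1 stood slightly apart, at 0.988 and 0.99 with the others against 0.996 between arrays 2 and 3. As a check of the culture form, the group mean of the negative siRNA spheres correlated at 0.974 with DMSO spheres and 0.922 with adherent DMSO cells. The 1640 genes at least 2-fold higher in DMSO spheres than in adherent DMSO cells had a median level of 7.02 in the former and 4.33 in the latter, and of 6.50 and 6.44 in spheres given negative siRNA and the COX-2-labelled siRNA. Markers of fibroblasts, leukocytes and endothelium or muscle lay under 4.82 for 9 of 12, 12 of 14 and 10 of 10 genes, and 2, 1 and 1 of them were higher and 1, 1 and 0 lower in the COX-2-labelled arm. Their summed linear signals ranged over the arrays from 524 to 642, 348 to 440 and 131 to 155 in that arm and from 464 to 507, 414 to 461 and 116 to 137 with negative siRNA, against 22700 to 23500 and 17700 to 19600 for 17 basal epithelial genes. The part of other cell types in the results was not tested.

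PTGS2, the gene named on the label, was higher in the COX-2-labelled spheres. It read 11.32, 11.51 and 11.59 there and 10.30, 10.29 and 10.35 with negative siRNA, a difference of 1.16 ± 0.13 (adjusted p = 2.57e-07). Every COX-2-labelled array lay above every negative siRNA array, so the arms are named here by their labels, and no direction below is taken as an effect of lowering PTGS2. In adherent cells the difference was 0.33 ± 0.13 and did not pass (adjusted p = 0.0888), and the difference between the culture forms was 0.83 (adjusted p = 0.00354). DMSO spheres, at 24 h and without transfection, averaged 12.11, above both siRNA groups of spheres. Whether the array's PTGS2 probes lie outside the sequence targeted by the siRNA was not tested.

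**Figure D1:**
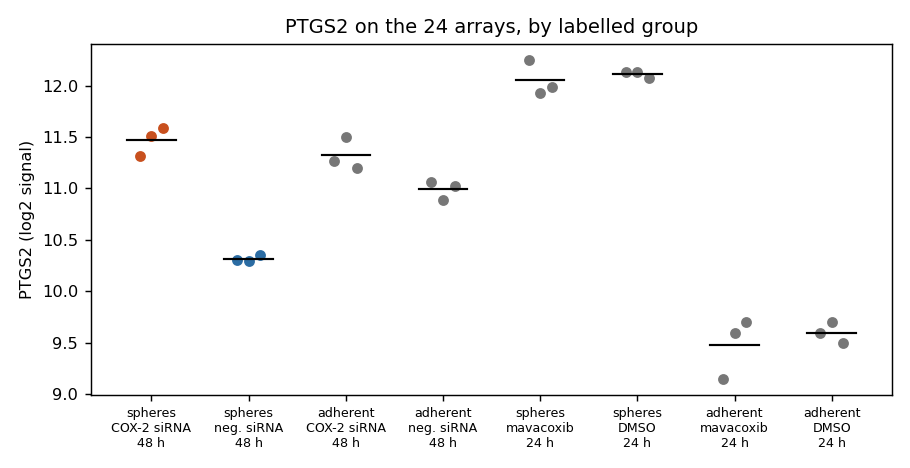
PTGS2 level (log2 signal) on each of the 24 arrays, by culture form and treatment, with points for arrays and bars for group means (n = 3). The 3 sphere arrays labelled COX-2 siRNA lie at 11.32 to 11.59 and the 3 negative siRNA sphere arrays at 10.29 to 10.35.

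Across all genes, 6356 of 16295 passed (39.0%), 2567 higher (15.8%) and 3789 lower (23.3%) in the COX-2-labelled spheres. These 15.8% and 23.3% are the shares to set beside the sphere counts of each gene list below. Large rises outnumbered large falls. Of the genes that passed at 2-fold or more, 695 were higher (4.27%) and 693 lower (4.25%), at 4-fold or more 182 were higher and 16 lower, and 49 genes rose at least 16-fold. Of the 695, 218 had a negative siRNA mean under 4.82, as did 87 of the 182. The arrays of the arms did not overlap at 7200 genes (44.2%). The median difference over all genes was -0.04. With every array shifted to a common median it was -0.15, and 1900 genes were then higher and 4723 lower, so that 28.7% of the genes that passed were higher in place of 40.4%. In bulk RNA, fewer cells of a kind and less RNA per cell cannot be told apart. Of the genes named below that passed, AGO2, CALR, CDH1, DEFB1, EGR1, IFNLR1, LY6E, MIR181C, OLR1, OR4C11D, RELA, RIPK3, TXN, VPREB3 and WNT1 lost that call under at least 1 alternative processing.

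Interferon genes and interferon-induced genes were among the largest rises. IFNL1, a type III interferon, read 11.51, 11.49 and 11.53 against 3.98, 4.11 and 3.86 (7.53 ± 0.22, adjusted p = 2.67e-17). IFNB1, the type I interferon made early after RNA sensing, read 8.83, 9.25 and 9.11 against 2.11, 1.83 and 2.39 (6.95 ± 0.26, adjusted p = 2.54e-15). Both were far apart between the arms on every array, from negative siRNA levels under the median of all values. IFNA7, an interferon alpha, read 9.23, 9.39 and 9.17 against 4.24, 4.05 and 4.20 (5.10 ± 0.15, adjusted p = 6.91e-17), and its probes may also bind other interferon alpha genes, which was not tested. IFNE, an interferon of epithelia, read 4.86, 4.0 and 4.17 against 2.87, 2.3 and 2.94 (1.64 ± 0.23, adjusted p = 4.84e-06). IFNK and IFNG did not pass (-0.17 and -0.06). In all, 4 of 6 interferon genes measured rose and 0 fell, against 15.8% and 23.3% of all genes.

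Sensors of double-stranded RNA and other nucleic acids, with their adaptors, were higher in 17 of 22 cases and lower in 0, with a median difference of 1.34. ZBP1, a sensor of Z-form nucleic acids, read 9.93, 9.94 and 9.81 against 3.61, 3.45 and 3.73 (6.30 ± 0.14, adjusted p = 4.28e-19). DHX58, which encodes LGP2, a regulator of RIG-I and MDA5, read 9.89, 9.89 and 10.01 against 4.40, 4.53 and 4.98 (5.29 ± 0.19, adjusted p = 1.32e-15). The RIG-I gene DDX58 rose by 4.61 ± 0.14 (adjusted p = 7.64e-17), from 7.21 to 11.83 in group means, and so from a level well over 4.82. TLR3, the endosomal receptor for double-stranded RNA, rose by 3.26 ± 0.18, and IFIH1, which encodes MDA5, by 2.67 ± 0.14 (adjusted p = 2.58e-12 and 6.13e-13). The oligoadenylate synthetases, which activate the ribonuclease RNase L, also rose: OAS2 by 3.49, OAS3 by 2.49 and OAS1 by 1.54. Smaller rises were those of EIF2AK2, the PKR gene (1.61 ± 0.11), and of the kinase gene IKBKE (1.32 ± 0.11). The adaptor genes MAVS and STING1 gave 0.32 and 0.51 and did not pass (adjusted p = 0.0555 and 0.0599), nor did IRF3 (0.13) or the endosomal receptors TLR7 and TLR8 (both -0.06).

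Downstream of the interferon receptors, 9 of 14 genes of receptors, JAK kinases, STAT proteins and interferon regulatory factors rose and 2 fell (median 1.11). IRF1 read 9.09, 8.79 and 8.58 against 5.46, 5.84 and 5.19 (3.32 ± 0.18, adjusted p = 1.54e-12), and the arms did not overlap. IRF7, which amplifies interferon production, rose by 2.67 ± 0.23, and IRF9 and STAT2, parts of the complex that activates interferon-stimulated genes, by 1.09 ± 0.16 and 1.22 ± 0.11 (adjusted p = 6.63e-09, 8.44e-06 and 1.52e-08). The receptor subunit gene IFNAR2 rose by 1.63 ± 0.16. TYK2, the kinase that pairs with the other subunit of that receptor, fell by 0.59 ± 0.14, and IFNLR1, a receptor subunit for type III interferon, fell by 0.40 ± 0.15 (adjusted p = 0.00133 and 0.0408).

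Among interferon-stimulated antiviral effectors 34 of 35 rose, with a median of 3.10, and the arms did not overlap at 34, against 18.9% of all genes without overlap on the higher side. GBP5, a guanylate-binding GTPase, read 8.77, 8.97 and 9.17 against 2.12, 2.05 and 2.20 (6.85 ± 0.16, adjusted p = 1.41e-18). OASL, an activator of RIG-I signalling, read 10.13, 10.21 and 10.21 against 3.27, 3.22 and 3.24 (6.94 ± 0.23, adjusted p = 1.97e-16). RSAD2, the viperin gene, read 12.34, 12.34 and 12.39 against 8.44, 8.34 and 8.45 (3.95 ± 0.14, adjusted p = 1.05e-15). These 3 genes show the range of control levels, from near the bottom of the scale for GBP5 to well above the median for RSAD2. MX1 and MX2, dynamin-like antiviral GTPases, rose by 4.74 ± 0.19 and 3.48 ± 0.12, IFIT2 by 4.85 ± 0.15 and the tetherin gene BST2 by 3.37 ± 0.17. The smallest rises that passed were those of SP110 (0.68) and ZC3HAV1 (0.69), and TRIM14 did not pass (0.02). ISG15, a ubiquitin-like modifier, and USP18, its protease and a brake on interferon receptors, rose by 3.81 ± 0.21 and 2.68 ± 0.20 (adjusted p = 2.48e-12 and 4.32e-10), and 4 of 9 genes of the feedback list rose and 0 fell.

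**Figure D2:**
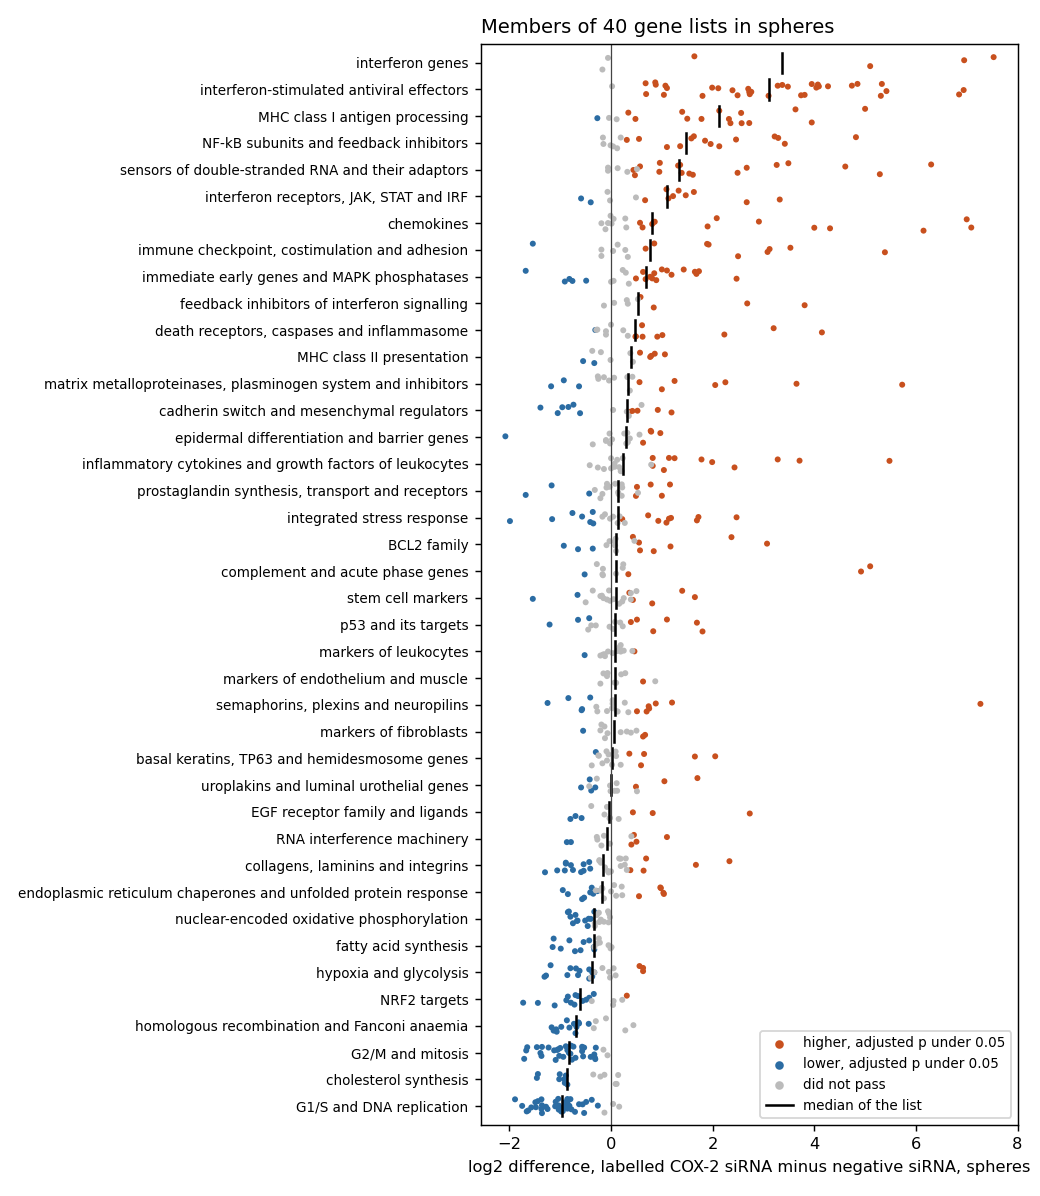
Differences (log2, labelled COX-2 siRNA minus negative siRNA, spheres) of the members of 40 gene lists, with a point per gene, coloured by direction where the adjusted p was under 0.05, and a bar at each list's median. Medians run from 3.37 for interferon genes to -0.96 for G1/S and DNA replication.

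Chemokines rose in 13 of 21 cases and fell in 0 (median 0.81). CXCL10, which draws T cells through CXCR3, read 11.12, 11.21 and 11.30 against 4.30, 4.24 and 3.81 (7.09 ± 0.19, adjusted p = 8.3e-18). CCL5 read 12.01, 12.05 and 12.03 against 5.23, 4.95 and 4.90 (7.0 ± 0.20, adjusted p = 3.1e-17). CCL2, which draws monocytes, read 10.47, 10.47 and 10.55 against 4.31, 4.13 and 4.61 (6.15 ± 0.13, adjusted p = 1.79e-19). All 3 were low with negative siRNA, but DMSO spheres differed between them, with means of 4.25 for CXCL10, 5.79 for CCL5 and 8.72 for CCL2. The neutrophil chemokine CXCL8 rose by 4.0 ± 0.18 (adjusted p = 6.23e-14), from 6.99 to 10.99 in group means, and CCL4, CCL7 and CCL20 by 4.31, 2.91 and 2.08. CXCL12, which holds stem and immune cells in tissue niches, did not pass (-0.19).

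NF-kB subunits and feedback inhibitors rose in 14 of 20 cases and fell in 0 (median 1.47). TNFAIP3, which encodes the inhibitor A20, read 11.14, 11.07 and 11.06 against 6.24, 6.30 and 6.27 (4.82 ± 0.16, adjusted p = 2.02e-16). NFKBIA, the gene of the inhibitor IkB alpha, read 11.84, 11.92 and 11.84 against 8.50, 8.49 and 8.73 (3.29 ± 0.13, adjusted p = 6.43e-15). Both started well above 4.82 and did not overlap between the arms. The subunit genes RELB, NFKB2, NFKB1 and REL rose by 3.22, 1.96, 1.58 and 1.36, and RELA by 0.31 ± 0.10 (adjusted p = 0.0125). The kinase genes CHUK, IKBKB and IKBKG did not pass (-0.16, 0.19 and 0.04).

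Inflammatory cytokines rose in 11 of 25 cases and fell in 0, with a median of only 0.23. TNF read 10.49, 10.43 and 10.41 against 4.93, 4.70 and 5.27 (5.48 ± 0.21, adjusted p = 2.51e-15). IL6 read 6.01, 6.56 and 6.54 against 2.65, 2.65 and 2.67 (3.71 ± 0.17, adjusted p = 1.17e-13), the first COX-2-labelled array being the lowest of its group. LIF and CSF1, growth factors for stem cells and macrophages, rose by 3.28 ± 0.18 and 2.43 ± 0.15, and IL1A by 1.99 ± 0.20. IL1B, IL18 and IL10 did not pass (-0.26, -0.42 and 0.07). Without dim genes, 6 cytokines were left among those that rose.

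Genes of MHC class I antigen processing rose in 14 of 17 cases and fell in 1 (median 2.13). PSMB9, an immunoproteasome subunit, read 9.81, 9.73 and 9.72 against 4.74, 4.71 and 4.8 (5.00 ± 0.13, adjusted p = 5.19e-18). The peptide transporter genes TAP1 and TAP2 rose by 3.63 ± 0.11 and 2.32 ± 0.11, the regulator NLRC5 by 3.95 ± 0.13 and B2M, the light chain of class I molecules, by 2.57 ± 0.16. The dog class I genes DLA88, DLA-64 and DLA-79 rose by 1.78, 1.5 and 1.4, and probes of these similar genes may share signal, which was not tested. CALR, the chaperone calreticulin, was the gene that fell (-0.27 ± 0.10, adjusted p = 0.0351), and it did not pass without COX-2-labelled array 1 or 2 or negative siRNA array 1 or 2. For class II, 5 of 12 genes rose and 2 fell (median 0.40), all by about 1 or less; the 2 became 0 without COX-2-labelled array 3 or negative siRNA array 1, and 1 without COX-2-labelled array 1 or 2. Its invariant chain CD74 rose by 1.06 ± 0.20 and DLA-DRA did not pass (0.38).

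Among checkpoint, costimulation and adhesion genes 9 of 16 rose and 1 fell (median 0.76). IDO1, the tryptophan-degrading enzyme, read 7.95, 7.68 and 8.01 against 2.63, 2.59 and 2.26 (5.39 ± 0.15, adjusted p = 1.31e-17). CD274, the PD-L1 gene, read 8.18, 8.32 and 8.48 against 5.51, 5.11 and 5.00 (3.12 ± 0.22, adjusted p = 1.65e-10). Of these, CD274 lay above 4.82 in both arms. VCAM1 and TNFSF4, the OX40 ligand gene, rose by 3.53 ± 0.20 and 3.08 ± 0.20. NT5E, which encodes the adenosine-producing ectoenzyme CD73, was the gene that fell, reading 4.58, 3.71 and 3.64 against 5.77, 5.58 and 5.19 (-1.54 ± 0.21, adjusted p = 4.48e-06). Without dim genes, 5 of the list were higher in place of 9.

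Death receptors, caspases and inflammasome genes rose in 9 of 17 cases and fell in 1 (median 0.48). TNFSF10, which encodes the death ligand TRAIL, read 10.68, 10.98 and 10.92 against 6.63, 6.49 and 7.02 (4.15 ± 0.18, adjusted p = 2.34e-14). CASP4, the caspase that senses intracellular lipopolysaccharide, rose by 3.20 ± 0.13, and GSDMD, whose cleaved product forms pores, by 2.23 ± 0.10 (adjusted p = 2.13e-14 and 1.17e-13). RIPK3, a kinase of necroptosis, fell by 0.31 ± 0.11 (adjusted p = 0.0324). In the BCL2 family 7 of 17 genes rose and 3 fell (median 0.10): the pro-death members PMAIP1 and HRK rose by 3.07 ± 0.16 and 2.37 ± 0.41, the pro-survival members BCL2A1 and MCL1 by 1.17 ± 0.19 and 0.55 ± 0.11, and BAD fell by 0.93 ± 0.14. Of p53 and its targets 6 of 17 rose and 3 fell (median 0.08), with CDKN1A, the cell cycle inhibitor p21, at 0.51 ± 0.11, and MDM2 at -0.45, which did not pass (adjusted p = 0.0538).

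Of the prostaglandin pathway 5 of 21 genes rose and 3 fell (median 0.14), and the 8 that passed are a share near the 39.0% of all genes. PTGER2, a receptor for prostaglandin E2, read 9.2, 9.25 and 9.22 against 8.31, 8.21 and 8.14 (1.00 ± 0.25, adjusted p = 0.00236). PTGES, the inducible prostaglandin E synthase, rose by 0.78 ± 0.19 (adjusted p = 0.00239), while PTGES2, another synthase, fell by 1.17 ± 0.16 (adjusted p = 4.44e-06). HPGD, which inactivates prostaglandins, read 3.77, 2.85 and 3.25 against 5.23, 5.20 and 4.49 and fell by 1.68 ± 0.23 (adjusted p = 4.74e-06). The arms did not overlap for PTGES or HPGD. PTGS1, the COX-1 gene, did not pass (-0.09), nor did the phospholipase gene PLA2G4A (0.21). In the RNA interference machinery 4 of 12 genes rose and 2 fell (median -0.08), against 15.8% and 23.3% of all genes. AGO4 and AGO2, Argonaute genes, rose by 1.10 ± 0.12 and 0.45 ± 0.14. PRKRA and TARBP2, whose products assist Dicer, gave -0.87 ± 0.14 and -0.79 ± 0.17, and DICER1 did not pass (-0.19).

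Genes of the cell cycle fell. Of the genes of G1/S and DNA replication, 0 of 41 rose and 38 fell (median -0.96), and the arms did not overlap at 37, against 25.3% of all genes without overlap on the lower side. E2F1, the transcription factor that drives S phase entry, read 8.13, 8.33 and 8.25 against 9.87, 10.10 and 9.98 (-1.75 ± 0.11, adjusted p = 5.43e-11). GINS4, a subunit of the replicative helicase, read 7.55, 7.5 and 7.5 against 9.55, 9.36 and 9.32 (-1.89 ± 0.13, adjusted p = 1.94e-10). The ribonucleotide reductase genes RRM1 and RRM2 both gave -1.37, and the helicase genes MCM2 to MCM7 gave differences from -0.86 (MCM6) to -1.44 (MCM3). DNMT1, POLE2 and CDK6 did not pass (0.16, -0.13 and 0.04).

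Of the G2/M and mitosis genes 0 of 36 rose and 34 fell (median -0.82). CDC20, which activates the ubiquitin ligase of anaphase, read 8.59, 8.67 and 8.50 against 10.34, 10.23 and 10.33 (-1.71 ± 0.10, adjusted p = 5.26e-12). CENPA, the centromeric histone, gave -1.65 ± 0.13, the proliferation regulator FOXM1 -1.12 ± 0.12 and the proliferation marker MKI67 -0.56 ± 0.13 (adjusted p = 1.32e-09, 1.06e-07 and 0.00189). CCNB1 and NUF2 did not pass (-0.15 and -0.07). Genes of homologous recombination and the Fanconi pathway fell in 13 of 18 cases and rose in 0 (median -0.69), led by EXO1 (-1.17 ± 0.14) and BARD1 (-1.13 ± 0.13), while BRCA1 did not pass (0.28).

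The mean of DMSO spheres lay below both siRNA means for 35.5% of all 16295 genes, between them for 34.8% and above both for 29.8%. The shares were 26.4%, 50.7% and 22.9% of the genes that fell, and 25.5%, 54.5% and 19.9% of those that rose. For 37 of the 41 replication genes the DMSO mean lay below both siRNA means, and for 4 between them, with median differences of -0.55 from the COX-2-labelled arm and -1.5 from negative siRNA. E2F1 averaged 7.58 with DMSO, 8.24 in the COX-2-labelled arm and 9.98 with negative siRNA. The antiviral effectors had another order, with the DMSO mean below both siRNA means for 22 of 35 genes and between them for 13, at median differences of -3.23 and -0.35. Epidermal differentiation and barrier genes lay above both siRNA means in DMSO spheres for 16 of 17 genes, with medians 2.59 and 2.91 higher. Time and transfection differed together between the DMSO and siRNA groups and cannot be told apart, and plating for attachment is stated for the transfected cells.

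**Figure D3:**
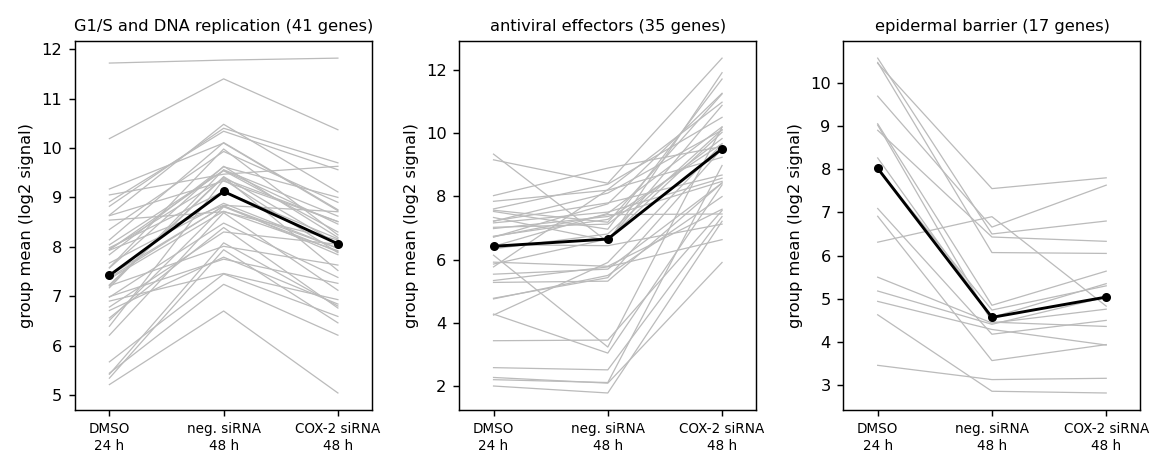
Group mean levels (log2 signal, n = 3 arrays per group) of 3 gene lists in DMSO spheres at 24 h and in both siRNA groups of spheres at 48 h, with a thin line per gene and a black line through the list medians. For replication genes the COX-2-labelled mean lies below negative siRNA but mostly above DMSO, and for antiviral effectors it lies above both.

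Metabolic lists held more genes that fell than rose, as did all genes, of which 23.3% fell and 15.8% rose. In cholesterol synthesis 8 of 14 genes fell and 0 rose (median -0.87). INSIG1, the sterol-responsive retention protein of SREBP, read 8.33, 8.33 and 8.28 against 9.71, 9.82 and 9.78 (-1.46 ± 0.13, adjusted p = 7.93e-09), and HSD17B7 gave -1.44 ± 0.12 (adjusted p = 3.48e-09). HMGCS1 and FDPS, early enzymes of the pathway, gave -0.92 ± 0.12 and -0.86 ± 0.12, but SQLE did not pass (0.09). In fatty acid synthesis 10 of 17 fell and 0 rose (median -0.34), with FASN, the fatty acid synthase, at -1.13 ± 0.10 (adjusted p = 1.45e-08) and SCD, the stearoyl-CoA desaturase, at 0.01. Of nuclear-encoded oxidative phosphorylation genes 12 of 23 fell and 0 rose (median -0.33), none by 2-fold.

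Targets of NRF2, the regulator of antioxidant genes, fell in 13 of 18 cases and rose in 1 (median -0.61). Of all genes, 23.3% fell and 15.8% rose. PIR read 8.97, 9.24 and 9.25 against 10.54, 10.60 and 10.65 (-1.44 ± 0.10, adjusted p = 1.66e-10), and OSGIN1 gave -1.73 ± 0.16. TXN, the thioredoxin gene, was the one that rose (0.31 ± 0.11, adjusted p = 0.0234). Hypoxia and glycolysis genes fell in 13 of 23 cases and rose in 3 (median -0.37): the glucose transporter gene SLC2A3 and the carbonic anhydrase gene CA9 gave -1.31 ± 0.13 and -1.28 ± 0.17, whereas HIF1A, NDRG1 and VEGFA rose by 0.63, 0.63 and 0.56.

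Stress-response lists were mixed, where 15.8% of all genes rose and 23.3% fell. In the integrated stress response 9 of 23 genes rose and 7 fell (median 0.13). ATF3 read 11.34, 11.34 and 11.28 against 8.45, 8.87 and 9.22 (2.47 ± 0.16, adjusted p = 6.01e-11), and SESN2 rose by 1.69 ± 0.11, but CTH and PHGDH, enzymes of cysteine and serine synthesis, fell by 1.99 ± 0.16 and 1.16 ± 0.11. Of endoplasmic reticulum chaperones and unfolded protein response genes 5 of 23 rose and 8 fell (median -0.17), and the 8 became 5 without COX-2-labelled array 1 or 2 or negative siRNA array 2. The regulator XBP1 rose by 0.97 ± 0.11, the disulfide isomerase genes PDIA6 and PDIA4 gave -0.95 and -0.85, and HSPA5, the main chaperone, did not pass (0.10).

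Immediate early genes and MAPK phosphatases rose in 15 of 25 cases and fell in 5 (median 0.68). FOSL2 and JUN, AP-1 subunits, rose by 1.73 ± 0.13 and 1.19 ± 0.13, and DUSP6, an ERK phosphatase, by 1.10 ± 0.11. The nuclear receptor gene NR4A1 read 4.06, 3.75 and 4.09 against 5.83, 5.59 and 5.51 (-1.68 ± 0.22, adjusted p = 1.79e-06), opposite to NR4A3 (1.43 ± 0.16). FOS, JUND, EGR1 and EGR2 were the others that fell, by 0.91, 0.76, 0.49 and 0.82.

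Secreted and matrix genes included some of the largest rises. MMP3, stromelysin, read 10.20, 10.17 and 10.11 against 4.14, 4.59 and 4.55 (5.73 ± 0.26, adjusted p = 1.04e-13). The collagenase gene MMP13 rose by 3.65 ± 0.20, the plasminogen activator gene PLAU by 2.25 ± 0.11 and MMP19 by 2.05 ± 0.14, while PLAT, the other plasminogen activator, fell by 1.18 ± 0.13. In that list 7 of 18 rose and 3 fell (median 0.34). The complement proteases C1S and C1R, which open the classical pathway, rose by 5.10 ± 0.16 and 4.92 ± 0.17 (adjusted p = 1.53e-16 and 3.44e-16), but C3 did not pass (-0.17), and 3 of 11 complement and acute phase genes rose and 1 fell. Of collagens, laminins and integrins 5 of 30 rose and 12 fell (median -0.16), against 15.8% and 23.3% of all genes. Fibronectin, FN1, gave 2.33 ± 0.11 and the collagen gene COL5A2 -1.30 ± 0.18.

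SEMA3A, a secreted guidance factor of axons and vessels, read 10.95, 11.09 and 11.28 against 3.91, 3.77 and 3.82 (7.27 ± 0.15, adjusted p = 1.79e-19). No other semaphorin, plexin or neuropilin gene measured came near it: SEMA6D was next at 1.2 ± 0.23, and 7 of 22 rose and 5 fell (median 0.07). CGA, the alpha subunit shared by the glycoprotein hormones, read 11.12, 11.31 and 11.27 against 4.95, 5.03 and 4.59 (6.38 ± 0.14, adjusted p = 5.63e-19). FGF2, the basic FGF that is also a supplement of the sphere medium, read 10.04, 10.07 and 10.24 against 4.6, 4.92 and 4.87 (5.32 ± 0.13, adjusted p = 1.84e-18). These 3 genes were separate between the arms by over 5 units, from negative siRNA levels near or under 4.82.

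Genes of epithelial type and of stemness showed no common direction. Of all genes, 15.8% rose and 23.3% fell. Basal genes rose in 5 of 17 cases and fell in 1, or 6 with array weights (median 0.02), with the keratin genes KRT17 and KRT6A at 2.05 ± 0.23 and 1.65 ± 0.26 and KRT5 at 0.19, which did not pass. Luminal urothelial genes rose in 3 of 15 and fell in 4 (median -0.01), and the 4 became 2 without COX-2-labelled array 3 or negative siRNA array 3. The transcription factor genes ELF3 and GATA3 rose by 1.70 ± 0.15 and 1.05 ± 0.15 and KRT18 fell by 0.59 ± 0.17. The uroplakin genes UPK1A, UPK1B, UPK2 and UPK3A, which mark the terminal urothelium, did not pass (-0.43, 0.11, -0.28 and 0.51). Of the barrier genes 4 of 17 rose and 1 fell (median 0.30); involucrin, IVL, rose by 0.97 ± 0.14 and LORICRIN, the loricrin gene, fell by 2.08 ± 0.29.

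Stem cell markers rose in 5 of 22 cases and fell in 2, or 4 without negative siRNA array 1 (median 0.10). The shares of all genes were 15.8% and 23.3%. SOX2 read 10.17, 10.19 and 10.02 against 8.64, 8.72 and 8.82 (1.4 ± 0.22, adjusted p = 1.81e-05), KLF4 rose by 1.65 ± 0.20, and PROM1, NANOG and ALDH1A1 did not pass (-0.21, -0.02 and -0.50). Of cadherin switch and mesenchymal regulators 5 of 15 rose and 6 fell (median 0.31). Here the E-cadherin gene CDH1 rose by 0.36 ± 0.09 and the N-cadherin gene CDH2 fell by 0.84 ± 0.18, but SNAI2, a repressor of E-cadherin, rose by 1.19 ± 0.13. In the EGF receptor family 3 of 12 rose, or 1 without negative siRNA array 3, and 3 fell (median -0.05), with the receptor gene ERBB4 at 2.73 ± 0.16 (adjusted p = 4.63e-12) from a negative siRNA mean of 2.87.

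The largest falls were smaller than the largest rises and came from genes of varied roles. LOC486151, which has no assigned name, read 4.95, 3.73 and 4.05 against 7.75, 7.61 and 7.37 (-3.33 ± 0.21, adjusted p = 2.23e-11), the only fall of at least 8-fold. MORN2 gave -2.54 ± 0.40 and IDNK, a gluconokinase gene, -2.49 ± 0.17. PRR11, which acts in cell cycle progression, gave -2.29, the repressor gene RIPPLY3 -2.25, the secretory GTPase gene RAB27B -2.14 and the elongation factor gene EAF2 -2.12. Of the 15 largest, 7 lay between -2.03 and -2.10: PCBD1, LORICRIN, CA14, CFAP206, LARGE2, TSPAN33 and COLEC12. The largest rises and falls were ranked only among genes that passed and whose arrays did not overlap between the arms. Among the 15 largest rises, LOC488947, LOC100684769 and LOC606863 have no assigned name (7.46, 6.56 and 5.77), and the others not given above were PLAAT4, an interferon-inducible phospholipase gene (7.24), and the guanylate-binding gene GBP6 (6.51).

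**Figure D4:**
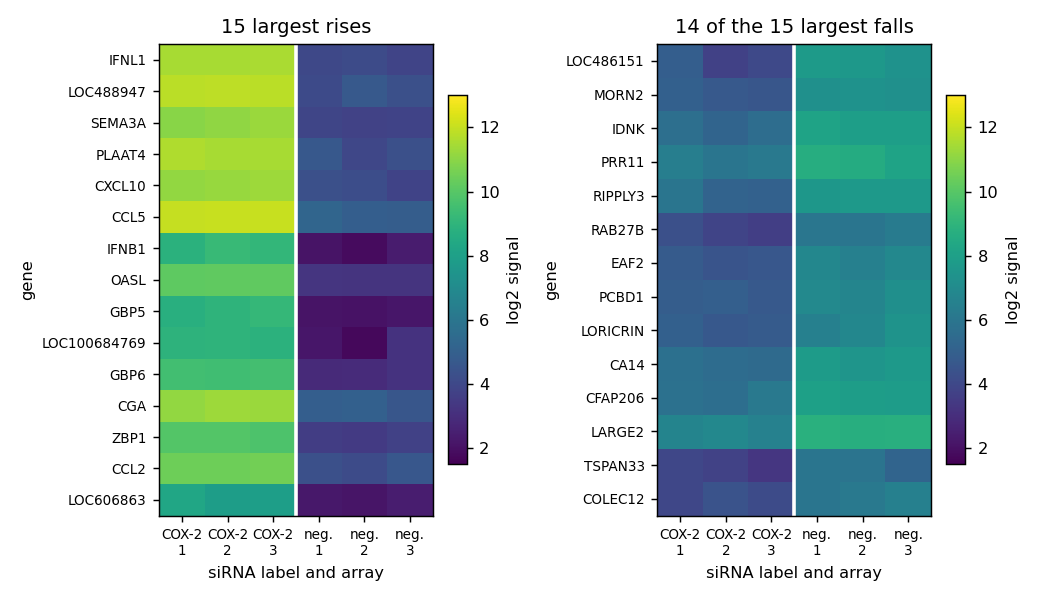
Levels (log2 signal, colour scale) of the 15 largest rises and 14 of the 15 largest falls on 6 arrays of spheres, 3 per siRNA. The COX-2-labelled arrays read 7.89 to 12.05 at the rises, and the falls run from -2.03 to -3.33.

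Arrays within the COX-2-labelled arm differed most, among genes that passed, at OLR1, WNT1, OR4C11D, MIR181C and VPREB3. OLR1, a scavenger receptor gene, read 4.40, 2.81 and 2.58 with an SD of 0.99, and WNT1 read 2.67, 4.21 and 4.30 with an SD of 0.92. In each of the 5, array 1 was the one that departed from arrays 2 and 3. For all 5 the SD among negative siRNA arrays was 0.08 to 0.21.

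Against the same contrast in adherent cells, where 2445 genes passed, 1046 higher (6.42%) and 1399 lower (8.59%), the sphere difference itself differed at 2489 genes (15.3%), 1099 more positive (6.74%) and 1390 more negative (8.53%) in spheres. With every array shifted to a common median the split was 761 and 2102. The adherent and sphere contrasts share no arrays. Of the genes that passed in both, 1793, the sign was the same for 1723 (96.1%); they were 28.2% of the sphere calls and 73.3% of the adherent calls. Across genes, which are not independent replicates, the differences correlated at r = 0.6 and rho = 0.437.

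Interferon-stimulated effectors rose in both forms, in 34 of 35 cases each, with medians of 3.10 in spheres and 3.05 in adherent cells. Their differences between the forms went both ways, 11 more positive and 9 more negative in spheres. USP18 rose by 2.68 in spheres and 5.8 in adherent cells (difference -3.12 ± 0.28, adjusted p = 7.15e-08), and IFI44L by 3.74 and 6.01 (-2.27 ± 0.32, adjusted p = 4.01e-05). USP18 averaged 9.33 with the COX-2-labelled siRNA and 6.65 with negative siRNA in spheres, and 9.17 and 3.37 in adherent cells, so the forms lay further apart under negative siRNA. GBP5 went the other way, at 6.85 and 3.64 (3.21 ± 0.23, adjusted p = 2.71e-09).

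Some chemokines set the forms apart. Of 21 chemokines 11 had a more positive difference in spheres and 0 a more negative one, and 5 rose and 1 fell in adherent cells. CCL5 rose in both forms, by 7.0 in spheres and 6.19 in adherent cells, and the difference between forms did not pass (0.81, adjusted p = 0.0587). CXCL10 also rose in both, by 7.09 and 3.19 (difference between forms 3.90 ± 0.27), to means of 11.21 and 11.19. CCL2, up by 6.15 in spheres, differed by -0.07 in adherent cells, where it averaged 3.69 and 3.76 (difference between forms 6.21 ± 0.18, adjusted p = 3.7e-16), and CXCL8 gave 4.0 and 0.35. Other genes with a large difference in spheres and one of at most 1.15 in adherent cells were C1S (5.10 and -0.26), CGA (6.38 and 1.15), MMP3 (5.73 and 0.97), C1R (4.92 and 0.77), the deiodinase gene DIO2 (5.01 and 0.29), the xanthine dehydrogenase gene XDH (4.75 and 0.39) and the transglutaminase gene TGM2 (4.99 and 0.22). TGM2 was already high in adherent cells, at 11.17 and 10.95, unlike the other 6 of these. CGA, MMP3 and C1R also passed as higher in adherent cells (adjusted p = 6.83e-06, 0.0151 and 0.00299), while C1S, DIO2, XDH and TGM2 did not pass there. Likewise 11 of 20 NF-kB genes and 11 of 17 class I genes were more positive in spheres, and 1 and 0 more negative. Of the immediate early genes 13 of 25 were more positive and 0 more negative.

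Cell cycle genes also differed between the forms: 33 of 41 replication genes and 20 of 36 mitosis genes had a more negative difference there and 0 a more positive one. In adherent cells 9 of 41 and 9 of 36 fell and 2 of each rose, with medians of -0.15 and -0.26. Besides USP18, IFI44L and LOC486151 (-3.33 and -0.75), the genes with the most negative differences between forms were PLA2R1, LY6E, MCOLN2, ITGB8 and BARX2. LY6E, an interferon-induced membrane protein gene, rose by 0.51 in spheres and 3.26 in adherent cells, and the integrin gene ITGB8 by 1.85 and 4.17. With negative siRNA, LY6E averaged 9.56 in spheres and 5.37 in adherent cells, and ITGB8 8.31 and 3.21. With the COX-2-labelled siRNA they averaged 10.07 and 8.63, and 10.16 and 7.39, so both were higher in spheres in both arms. BARX2, a homeobox gene, fell by 1.75 in spheres and gave 0.41 in adherent cells, which did not pass. PLA2R1 and MCOLN2 did not pass in spheres (0.40 and 0.46) and gave 3.16 and 3.17 in adherent cells. With negative siRNA, PLA2R1 averaged 5.50 in spheres and 3.13 in adherent cells, and MCOLN2 2.35 and 5.21.

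**Figure D5:**
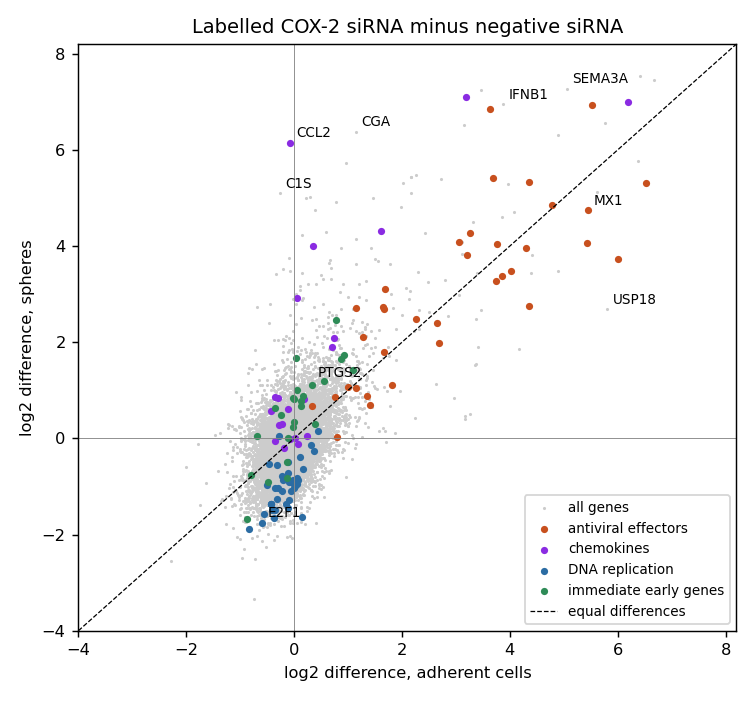
Difference (log2, labelled COX-2 siRNA minus negative siRNA) in spheres against that in adherent cells for all genes (grey), with 4 gene lists coloured and the line of equal differences dashed. Antiviral effectors lie on both sides of the line, CCL2, C1S and CGA far above it, and USP18 below it.

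The labelled siRNA difference was also set against that of mavacoxib against DMSO in spheres, which used other arrays, 24 h in place of 48 h and no transfection. Mavacoxib changed 3491 genes (21.4%), and the siRNA difference departed from it at 5229 (32.1%), 2175 more positive (13.3%) and 3054 more negative (18.7%), or 1487 and 4138 with every array shifted to a common median. Since time and transfection differ too, the difference cannot be assigned to the agents. PTGS2 gave 1.16 with the labelled siRNA and -0.05 with mavacoxib, a difference of 1.21 (adjusted p = 2.31e-05).

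Antiviral effectors were more positive with the siRNA in 33 of 35 cases, and 11 rose and 5 fell with mavacoxib, against 11.1% and 10.3% of all genes. IFNL1, CXCL10 and ISG15 rose with both, by 7.53 and 3.91, 7.09 and 3.33, and 3.81 and 3.58, the last without a difference between them that passed (0.23). IFNB1, ZBP1, SEMA3A and GBP5 rose with the siRNA and gave 0.46, 0.06, 0.40 and 0.19 with mavacoxib, which did not pass. With SEMA3A (6.88), CGA (6.83), GBP5 (6.66), IFNB1 (6.50), ZBP1 (6.24) and CCL2 (5.54), the most positive differences were FGF2 and LOC606863 (both 5.52).

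In cholesterol synthesis 12 of 14 genes rose and 0 fell with mavacoxib, while 8 fell and 0 rose with the labelled siRNA, and 13 differed between them, all more negative with the siRNA. INSIG1 gave -1.46 with the siRNA and 1.61 with mavacoxib (difference -3.07 ± 0.18, adjusted p = 3.43e-11). Endoplasmic reticulum chaperones rose in 16 of 23 cases and fell in 0 with mavacoxib, against 5 and 8 with the siRNA, and 14 were more negative with the siRNA. Replication genes rose in 19 of 41 cases and fell in 3 with mavacoxib, against 0 and 38 with the siRNA, and 37 were more negative with the siRNA. The most negative single difference was that of NR4A1, at -1.68 and 2.49 (-4.17 ± 0.30, adjusted p = 9.56e-10). LIPG, an endothelial lipase gene, gave -0.87 and 2.02, AADACL3 -1.08 and 1.81, and DEFB1, a beta-defensin gene, 0.57 and 3.62. TMEM52, at -0.23 and 3.15, did not pass with the siRNA, and MORN2 and LOC486151 completed the 8, neither passing with mavacoxib.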

How the data were processed

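RNA of each sample was labelled and hybridised to an array, per the labels' protocols, and 24 arrays in 8 groups of 3 were used. The deposited values are log2 signals per feature, made by the authors with Affymetrix Expression Console 1.1, per the submitters' processing notes; how they were summarised and normalized is not given in the sources used here. No detection call was used.

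Of 27766 features, 16878 carry 1 gene symbol in the platform annotation, 289 several and 10599 none. The feature with the highest mean stood for each gene, giving 16295 genes. A mean per group was fitted to all 24 arrays in limma 3.58.1 (R 4.3.3), with moderated two-sided tests and Benjamini-Hochberg adjustment over all genes, and a gene passed at an adjusted p under 0.05. The adherent and mavacoxib contrasts and the differences between contrasts came from the same fit. That fit was also run on simulated data with independent noise, which cannot show how it handles deviations shared by the genes of an array. The number of arrays limits the precision.

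The genes named were the 15 largest rises and falls (1 fall is not reported here), at most 8 members per list, those of smallest adjusted p, and any that passed against the direction of most of its list, the 8 largest differences each way between contrasts, and the 5 genes that varied most in the COX-2-labelled arm. Members named beyond that, including those that did not pass, were picked after their values were seen. The comparison, the 40 gene lists and the tests were chosen with earlier results of these data known. Alternatives covered normalization, dim genes, several features per gene, the arrays fitted, the variance model, array weights, a replicate block and leaving out arrays. Deviations from the group means correlated between same-numbered sphere arrays of the arms at 0.196, -0.0465 and 0.0759. Differently numbered arrays were not compared, so whether arrays of a number shared deviations was not tested. The block was used only as an alternative.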

Additional observations from a re-analysis of the deposited data

Results flagged for a closer look

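The labelled siRNA difference was not the same in both culture forms at 2489 genes, as tested by the interaction in limma. PTGS2 itself was among them, with a difference 0.83 larger in spheres. The largest positive values, spheres minus adherent cells, were those of CCL2 (6.21), C1S (5.37), CGA (5.22), TGM2 (4.77), MMP3 (4.76), DIO2 (4.72), XDH (4.37) and C1R (4.15). The most negative were those of USP18 (-3.12), PLA2R1 and LY6E (both -2.75), MCOLN2 (-2.70), LOC486151 (-2.59), ITGB8 (-2.33), IFI44L (-2.27) and BARX2 (-2.16).

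Features without a gene symbol were left out of the comparison of genes. Tested by the same model, with adjustment over all 27766 features, 1888 of 10599 passed in spheres (17.8%), 1012 higher and 876 lower. Their differences ran from -2.23 to 6.98 over all 10599. By 2-fold or more 524 of the 1888 differed, 380 higher and 144 lower. Some features carry identical values, and the 524 hold 432 distinct sets of values.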

How the results depend on the processing

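The count of genes that passed in spheres stayed within 1.5 times of 6356 under all 15 alternatives, from 5057 with only the 6 arrays to 9350 with array weights, and leaving out 1 array gave 5350 to 6679. PTGS2 lay between 1.05 and 1.26 and passed under all 15, at 1.10 to 1.24 with 1 array left out. The count of genes that differed between the culture forms rose from 2489 to 5445 with array weights, and was 1860 to 3311 with 1 array left out; the cause was not tested. The count that differed from mavacoxib was 4130 to 7696 against 5229, and 4699 to 5472 with 1 array left out. With the replicate number as a block the 3 counts were 6028, 1998 and 4814 and PTGS2 gave 1.16. Without COX-2-labelled array 1 and negative siRNA array 3, an alternative chosen after seeing the data, the counts were 6282, 3392 and 5454.

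Of 186 named genes that passed, 171 kept direction and call under all 15 alternatives, 15 lost the call under at least 1, and 0 changed sign. Of 36 list counts of at least 5, 28 stayed within 1.5 times. Of 44 counts under 5, 27 moved by more than that under at least 1 alternative, 16 of them with 1 array left out. With arrays shifted to a common median the prostaglandin, mesenchymal and stem lists had 3 higher in place of 5 each. Without dim genes, 6 cytokines in place of 11 and 5 checkpoint genes in place of 9 were higher, as fewer genes were tested. With array weights 19 in place of 12 oxidative phosphorylation genes were lower and 9 in place of 5 matrix genes higher. Of the endoplasmic reticulum genes 5 in place of 8 were lower with only the 6 arrays, with the block, or without COX-2-labelled array 1 or 2 or negative siRNA array 2.

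The genes whose sign changed did not pass before or after. With quantile normalization IFNG and TLR7 gave 0.00 and SCD -0.02. With arrays shifted to a common median CDK6 gave -0.07, HSPA5 -0.01, IKBKG -0.08, IL10 -0.05, SCD -0.10, SQLE -0.02, TRIM14 -0.09 and UPK1B 0.00. With array weights CDK6 gave -0.04, IL1B 0.22, KRT5 -0.04, NANOG 0.16, PTGS1 0.09, SCD -0.06, SQLE -0.05, TMEM52 0.16, TRIM14 -0.04, UPK1B -0.02 and UPK2 0.18. Without COX-2-labelled array 1 and negative siRNA array 3, CDK6 gave -0.04, HSPA5 0.00, IL1B 0.04, KRT5 -0.04, NANOG 0.20, PTGS1 0.26, SCD -0.09, SQLE -0.08, TMEM52 0.30, TRIM14 -0.06, UPK1B -0.05 and UPK2 0.02. With 1 array left out the ranges were -0.50 to 0.06 for CCNB1, -0.02 to 0.08 for CDK6, -0.02 to 0.17 for HSPA5, -0.31 to 0.10 for IFNG, -0.39 to 0.03 for IFNK and -0.06 to 0.23 for IKBKG. They were -0.05 to 0.29 for IL10, -0.49 to 0.02 for IL1B, -0.03 to 0.31 for KRT5, -0.14 to 0.10 for NANOG, -0.33 to 0.19 for PTGS1 and -0.06 to 0.06 for SCD. They were -0.05 to 0.17 for SQLE, -0.14 to 0.06 for TLR8, -0.50 to 0.17 for TMEM52, -0.04 to 0.09 for TRIM14 and -0.02 to 0.19 for UPK1B.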

Other observations

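Families picked by symbol after the values were seen extended the lists above, and not all of those looked at are given. Of 19 centromere protein genes, 18 were lower in the COX-2-labelled spheres and 0 higher, with a median difference of -1.03, against 23.3% and 15.8% of all genes and a median of -0.04. Of 68 mitochondrial ribosomal protein genes, 38 were lower and 3 higher (median -0.47), and of 59 cytosolic ribosomal protein genes, 30 were lower and 0 higher (median -0.30). Of 43 histone genes, whose probes may share sequence, 25 were lower and 3 higher (median -0.33). The poly(ADP-ribose) polymerase family went the other way, with 8 of 12 genes higher and 3 lower (median 0.90). Among 284 microRNA genes 39 were higher and 6 lower (median -0.01), against 15.8% and 23.3% of all genes. Other families were mixed: of 337 solute carrier (SLC) genes 51 were higher and 56 lower, and of 40 TRIM genes 12 and 7. Of 35 kinesin (KIF) genes 6 were higher and 14 lower, and of 47 proteasome (PSM) genes 4 and 9.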
